A study of Caenorhabditis elegans with 6 samples.

Results

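The insulin receptor pathway of Caenorhabditis elegans was followed through 10 genes: the ligand genes ins-4 and daf-28, the receptor gene daf-2, the kinase genes age-1, pdk-1, akt-1, akt-2 and sgk-1, the phosphatase gene daf-18 and the transcription factor gene daf-16. They were found by matching the RefSeq locus tag of each row of the deposited table to the gene symbol, and all 10 had a row among the 20894 rows. The wild-type strain N2 was compared with bcf-1(ylf1) animals, using RNA of whole worms that the labels call adults. Each genotype had 3 libraries, which the design text describes as prepared independently. All animals fed on Escherichia coli OP50, the usual laboratory food. The series title describes BCF-1 as an intestinal glycoprotein that binds bacteria. The labels give neither the nature of the ylf1 lesion nor the age of the adults, and no second allele or rescued strain was among the samples. In RNA from whole animals, fewer cells of a type and less RNA per cell cannot be told apart.

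In this pathway, insulin-like peptides, many of them made in sensory neurons, bind the receptor DAF-2. The receptor activates the phosphatidylinositol 3-kinase AGE-1, whose lipid product recruits PDK-1, AKT-1 and AKT-2, and the phosphatase DAF-18 removes that product. The kinases keep the FOXO transcription factor DAF-16 out of the nucleus, so that low signalling lets DAF-16 switch its targets. The pathway is known for setting dauer entry, lifespan, fat storage and stress and pathogen resistance.

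Values were read as FPKM, a measure of fragments divided by transcript length and library size, and summed to between 659249 and 687573 per library. The number of reads behind them is unknown. The targeted gene bcf-1 lay at 374 to 499 FPKM in N2 and at 60.01 to 72.1 FPKM in the mutant, and its close paralogue gfi-1 may share reads with it. The limma fit covered 13576 genes and called 6738 of them (49.6%), 4703 as higher and 2035 as lower in the mutant. Across tested genes the median log2 change was 0.24, so each change below is to be read against that level. After median-ratio scaling the split was 3065 higher and 3096 lower, and after quantile normalization 3255 and 2803. The label of adult animals was checked against 11 adult cuticle and yolk genes, of which 10 fell, 1 rose and 0 were at 0 in every N2 library. Their summed level ran from 3840 to 6443 FPKM in N2 and from 431 to 506 FPKM in the mutant, where vit-4 was below 1 FPKM in every library. Beside them, 6 of 7 pharynx, 4 of 7 body wall muscle, 4 of 5 sperm and 4 of 5 hypodermis markers rose and 0 of these fell. Of 9 germline markers 2 rose and 1 fell. All these counts, with those of the adult genes, stand beside 34.6% of all tested genes higher and 15% lower. The part of these shifts in the results below was not tested, and it cannot be told apart from the genotype. N2 replicate 1 stood apart from the other N2 libraries on the second principal component, which held 8.79% of the variance.

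Across the pathway, the ligand genes ins-4 and daf-28 had the largest rises in the mutant. The receptor gene daf-2 and the kinase gene akt-1 rose less, sgk-1 fell, and age-1, pdk-1, akt-2, daf-18 and daf-16 did not pass the test. Of the 10 genes 4 were higher, beside 34.6% of all tested genes, and 1 was lower, beside 15%. These shares are near the background. Libraries of the genotypes did not overlap in 8 genes, 7 of them higher in the mutant (40.4% of all tested genes) and 1 lower (18%). All 10 genes passed the filter of at least 1 FPKM in at least 3 libraries, but ins-4 passed it only through the mutant libraries. The median log2 change of the 10 genes was 0.32.

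**Figure D1:**
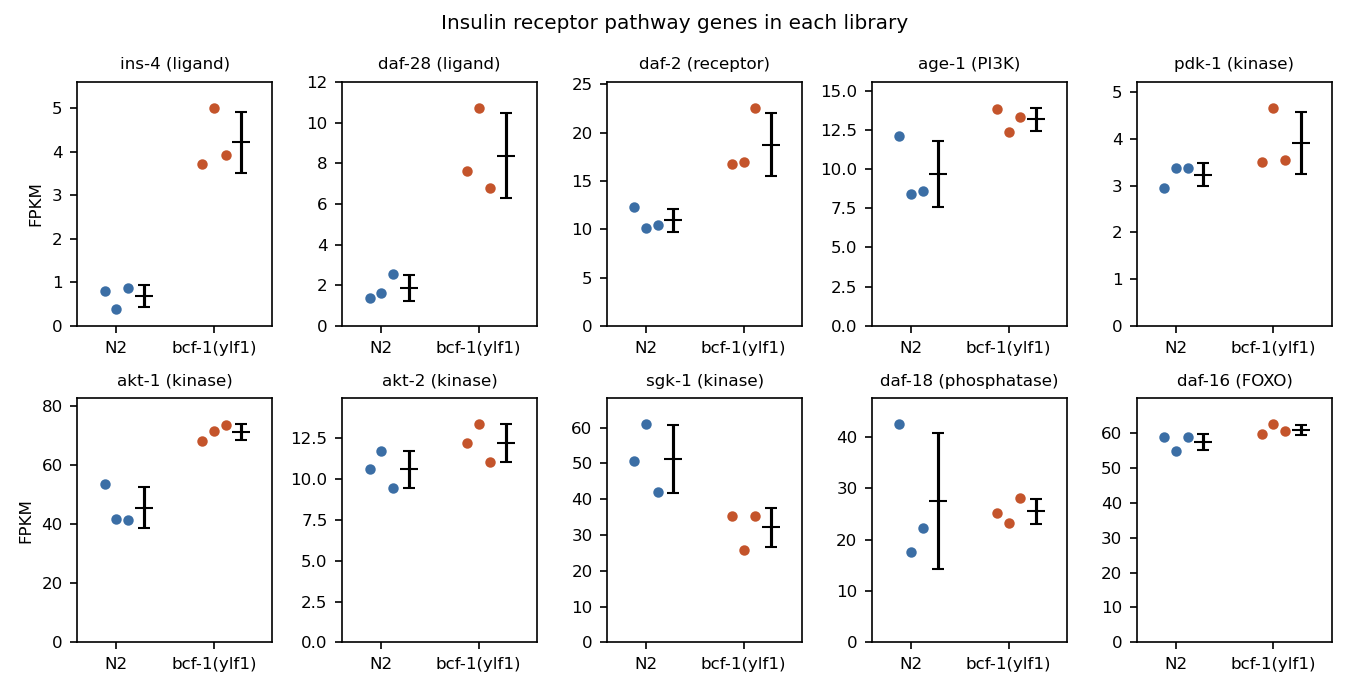
FPKM (vertical axes, from 0) of each of the 10 pathway genes in the 3 N2 libraries (blue) and the 3 bcf-1(ylf1) libraries (orange), with the mean and SD of each genotype in black. ins-4 and daf-28 sit at most at 0.878 and 2.57 FPKM in N2 and at least at 3.72 and 6.79 FPKM in the mutant, sgk-1 is lower in every mutant library, and daf-18 is widely spread in N2.

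ins-4 (ZK75.1; chromosome II, 5996366 to 5997008, WBcel235, plus strand) encodes an insulin-like peptide that acts as an agonist of DAF-2 in genetic tests. It was near the lower end of detection in N2, with 0.795, 0.392 and 0.878 FPKM, and reached 3.72, 5.01 and 3.92 FPKM in the mutant. Every mutant library was above every N2 library. The mean rose 6.13-fold, from 0.688 ± 0.260 to 4.22 ± 0.696 FPKM (SD, n = 3 each), with a log2 change of 1.63 on the log2(FPKM + 1) scale (SE 0.17, limma adjusted p = 8.31e-05). Because the filter admitted this gene through the mutant only, the fit without a filter also bears on it, and there its adjusted p was 0.000628 in limma.

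daf-28 (Y116F11B.1; chromosome V, 19815133 to 19816454, plus strand) encodes an agonist peptide whose expression in the sensory neurons ASI and ASJ is known to promote growth over dauer arrest. It lay at 1.35, 1.63 and 2.57 FPKM in N2 and at 7.62, 10.7 and 6.79 FPKM in the mutant. The lowest mutant library was thus above the highest N2 library. The mean rose 4.53-fold, from 1.85 ± 0.635 to 8.38 ± 2.09 FPKM, a log2 change of 1.72 (SE 0.21, limma adjusted p = 0.000244). Relative to the median of all genes the log2 changes were 1.40 for ins-4 and 1.48 for daf-28.

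Both ligand genes belong to a large family, of which 39 genes, ins-1 to ins-37, ins-39 and daf-28, had a row. Of these, 16 passed the filter and 13 of them rose, while 0 fell in limma (1 at an unadjusted p under the threshold). The median log2 change of the 16 was 1.22, but 5 of them passed only through the mutant libraries. ins-35, ins-6, ins-7 and ins-26 reached 1 FPKM in 1 N2 library and ins-33 in 2, so these needed mutant libraries as well. The count of rises and the median are therefore no support for a shift of the family. Over all 39 rows, with no filter on level, the libraries did not overlap in 18 genes higher in the mutant and in 2 lower, beside 34.9% and 15% of all rows above 0 in a library. In the fit without a filter 18 rose and 0 fell, beside 27% and 11.6% of rows tested there. Leaving out mutant replicate 1, 2 or 3 left 8 rises each time, with fewer low genes reaching the filter.

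**Figure D2:**
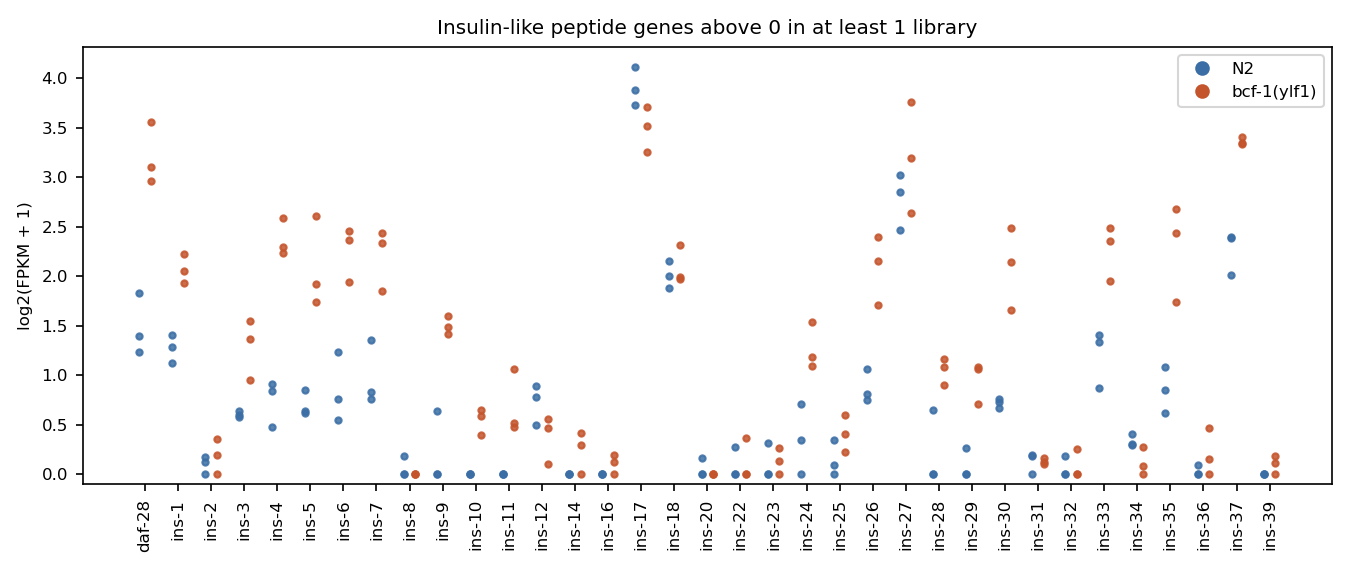
log2(FPKM + 1) of the 35 insulin-like peptide genes above 0 in at least 1 library, one point per library, N2 in blue and bcf-1(ylf1) in orange. daf-28 and ins-4 to ins-7 have all 3 mutant points above the N2 points, while ins-12, ins-17 and ins-18 do not.

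The peptides can be ordered by the action genetics assigns to them. Of 7 agonist genes, 5 passed the filter and all 5 rose: ins-4, daf-28, ins-35, ins-6 and ins-7, beside 34.6% of all tested genes. Of these ins-4 was admitted by the mutant libraries alone, as said above. ins-35, ins-6 and ins-7 reached 1 FPKM in 1 N2 library each, so they also needed mutant libraries to pass. Only daf-28 met the filter in N2 alone, and the count is no support for a shift of the agonist genes. With no filter on level, 6 of the 7 did not overlap and were higher in the mutant, beside 34.9% of all rows above 0. In the fit without a filter 6 rose and 0 fell, beside 27% and 11.6% of rows tested there. The list, with ins-4 and daf-28 in it, was chosen with earlier results of these data known. ins-6, known for promoting exit from dauer, was at 0.463, 0.697 and 1.35 FPKM in N2 and at 4.17, 4.51 and 2.84 FPKM in the mutant (log2 change 1.41, SE 0.21, limma adjusted p = 0.000642). ins-7, made in the intestine among other sites, rose 3.66-fold and ins-35 rose 4.92-fold. Of the other two agonist genes, ins-3 lay at 0.493 to 0.559 FPKM in N2 and 0.930 to 1.92 FPKM in the mutant, and ins-32 did not exceed 0.194 FPKM in any library.

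Of 5 antagonist peptide genes, 4 passed the filter, of which 2 rose and 0 fell in limma. Of all tested genes 34.6% were higher and 15% lower. At an unadjusted p under the threshold 2 antagonist genes were higher and 1 was lower. ins-37 rose 2.41-fold to 9.27 ± 0.291 FPKM and ins-1 2.25-fold to 3.21 ± 0.432 FPKM, with log2 changes of 1.09 and 0.80 (limma adjusted p = 0.000525 and 0.00181). ins-17, the most abundant family member in N2, had 13.8, 12.2 and 16.3 FPKM there and 10.4, 12.1 and 8.57 FPKM in the mutant. Its log2 change was -0.41 (limma adjusted p = 0.0733), and it passed as lower after median-ratio scaling, after quantile normalization and without mutant replicate 2. ins-18 was at 2.68 to 3.46 FPKM in N2 and 2.93 to 3.99 FPKM in the mutant, so the genotypes overlapped. ins-39 did not pass the filter.

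The remaining rises were of ins-5, ins-30, ins-9, ins-26, ins-33 and ins-24, with log2 changes between 0.92 and 1.39. ins-9 was listed at 0 in N2 replicates 1 and 2 and at 0.561 FPKM in N2 replicate 3, and lay between 1.68 and 2.02 FPKM in the mutant. ins-24 was at 0 to 0.634 FPKM in N2 and at 1.14 to 1.90 FPKM in the mutant, and ins-27 was not called, with a log2 change of 0.42. ins-10 and ins-11 were listed at 0 in all N2 libraries and above 0 in all mutant libraries, at 0.318 to 0.566 and 0.397 to 1.09 FPKM.

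ins-4 lies in a group of 6 insulin-like genes on chromosome II between 5988524 and 6011321, with neighbouring genes at most 20000 bases apart. Besides ins-4, ins-5 and ins-6 rose there, and ins-3 did not overlap between genotypes, while ins-2 and ins-20 stayed at or below 0.283 FPKM in every library. Summed over the group, the level was 2.27 to 3.81 FPKM in N2 and 11.2 to 15.5 FPKM in the mutant. On chromosome I, 7 family genes (ins-24 to ins-30) lie between 14012369 and 14037777. There 3 genes rose, ins-24, ins-26 and ins-30, and 5 did not overlap, the others being ins-28 and ins-29. Of all tested genes 34.6% rose, and 34.9% of all rows above 0 did not overlap and were higher in the mutant. ins-4, ins-5, ins-24 and ins-30 had no N2 library at 1 FPKM, and ins-6 and ins-26 had 1. Each called gene of both groups thus needed mutant libraries to pass the filter, and the calls are no support for a shift of either group. daf-28 has no family neighbour within that distance.

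Markers of the neurons that make these ligands are given beside them. Of 9 genes listed as ASI and ASJ markers, 1 passed the filter and rose, daf-7. It encodes the TGF-beta ligand made in ASI, and lay at 1.00 to 1.63 FPKM in N2 and 8.03 to 11.2 FPKM in the mutant (log2 change 2.22, SE 0.17, limma adjusted p = 2.3e-05). The summed level of the 9 genes was 2.12 to 3.10 FPKM in N2 and 11.2 to 14.4 FPKM in the mutant, most of it daf-7. The other 8 summed to 1.118 to 1.474 FPKM in N2 and 3.15 to 3.41 FPKM in the mutant. Libraries did not overlap in 5 of the 9, all higher in the mutant (34.9% of all rows above 0): daf-7, gpa-4, ssu-1, tax-2 and tax-4. str-3 and srg-47, chemoreceptor genes, were at 0 in all N2 libraries, and gpa-9 and trx-1 overlapped. Of 12 general neuron markers 3 rose and 0 fell in limma (5 and 0 at an unadjusted p under the threshold), beside 34.6% and 15% of all tested genes. Their median log2 change was 0.27, which is 0.03 above that of all genes. The sum of the 12 was 266 to 285 FPKM in N2 and 317 to 363 FPKM in the mutant. Whether all genes listed for ASI and ASJ are confined to these neurons was not tested. The part of these marker shifts in the rise of the ligands was not tested either.

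daf-2 (Y55D5A.5; chromosome III, 2994514 to 3040846, minus strand) encodes the only insulin and insulin-like growth factor receptor of the worm. It was at 12.3, 10.1 and 10.4 FPKM in N2 and at 16.8, 16.99 and 22.6 FPKM in the mutant, without overlap. The mean rose 1.72-fold, from 10.9 ± 1.20 to 18.8 ± 3.30 FPKM, a log2 change of 0.72 (SE 0.16, limma adjusted p = 0.00592). Mutant replicate 3 was the highest library. The gene has 7 RefSeq transcripts, which the table does not separate. The noncoding gene linc-143 lies inside it on the same strand.

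age-1 (B0334.8; chromosome II, 11519328 to 11527054) encodes the catalytic subunit of the phosphatidylinositol 3-kinase. Its values were 12.1, 8.38 and 8.57 FPKM in N2 and 13.8, 12.4 and 13.3 FPKM in the mutant. N2 replicate 1 was close to the mutant libraries and the others were lower. The log2 change of 0.42 (SE 0.17) had an adjusted p of 0.0612 in limma, and without N2 replicate 1 it was 0.58, with an adjusted p of 0.00647. Protein-coding genes overlap age-1 on the opposite strand, by 1597 bases in the case of Y62F5A.10, so some reads may be assigned either way.

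Adaptors of the receptor and the kinase were measured beside them. ist-1, an insulin receptor substrate homologue, rose 3.28-fold, from 1.03, 1.19 and 1.49 FPKM in N2 to 3.45, 4.80 and 3.92 FPKM in the mutant (log2 change 1.17, SE 0.15, limma adjusted p = 0.000327). aap-1, the regulatory subunit that pairs with AGE-1, was at 20.4, 11.7 and 11.8 FPKM in N2 and 19.6, 20.6 and 20.2 FPKM in the mutant. Its log2 change of 0.48 (limma adjusted p = 0.0827) became 0.73 without N2 replicate 1, with an adjusted p of 0.00179. As with age-1, N2 replicate 1 lay at the mutant level.

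pdk-1 (H42K12.1; chromosome X, 1321344 to 1327986) encodes the kinase that phosphorylates AKT-1, AKT-2 and SGK-1. It was at 2.95, 3.39 and 3.37 FPKM in N2 and 3.50, 4.67 and 3.56 FPKM in the mutant. The mutant libraries were all above the N2 libraries, but by little in replicates 1 and 3. The log2 change of 0.21 (SE 0.15, limma adjusted p = 0.278) was below the median of all genes by 0.03, and it turned to -0.15 after quantile normalization.

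akt-1 (C12D8.10; chromosome V, 10248905 to 10252845) encodes one of a pair of AKT kinases that phosphorylate DAF-16. It rose from 53.8, 42.0 and 41.3 FPKM in N2 to 68.4, 71.6 and 73.7 FPKM in the mutant. The groups did not overlap. The mean rose 1.56-fold, from 45.7 ± 7.0 to 71.3 ± 2.68 FPKM, with a log2 change of 0.64 (SE 0.13, limma adjusted p = 0.00424).

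akt-2 (F28H6.1; chromosome X, 14147700 to 14152070), the second AKT gene, was lower than akt-1 in every library. Its values were 10.6, 11.7 and 9.46 FPKM in N2 and 12.2, 13.4 and 11.1 FPKM in the mutant, so the groups overlapped. The log2 change of 0.19 (SE 0.15, limma adjusted p = 0.311) became -0.05 after median-ratio scaling and -0.09 after quantile normalization.

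sgk-1 (W10G6.2; chromosome X, 16254843 to 16262122) encodes a serum and glucocorticoid-regulated kinase homologue, which takes input from the TOR complex of RICT-1 as well as from PDK-1. It went the other way from akt-1. N2 libraries lay at 50.6, 61.0 and 42.0 FPKM and mutant libraries at 35.4, 25.8 and 35.3 FPKM, without overlap. The mean was 1.59-fold lower, 32.2 ± 5.50 against 51.2 ± 9.52 FPKM, with a log2 change of -0.65 (SE 0.18, limma adjusted p = 0.0152), or -0.89 relative to the median of all genes. The call was lost without N2 replicate 2, the highest library, where the log2 change was -0.52 and the adjusted p was 0.0537.

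daf-18 (T07A9.6; chromosome IV, 420011 to 425177) encodes the lipid phosphatase that opposes AGE-1. It was at 42.5, 17.7 and 22.3 FPKM in N2 and at 25.2, 23.3 and 28.1 FPKM in the mutant. N2 replicate 1 was the highest of the 6 libraries, N2 replicate 2 was the lowest, and the mutant libraries lay between them. The log2 change was -0.01 (SE 0.28, limma adjusted p = 0.977), and it was 0.34 without N2 replicate 1 (adjusted p = 0.0806). The summed level of 9 germline marker genes was 796, 424 and 569 FPKM in the N2 libraries, in the same order as daf-18, and 711 to 771 FPKM in the mutant. The part of that spread in daf-18 was not tested.

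daf-16 (R13H8.1; chromosome I, 10750498 to 10776703) encodes the FOXO factor on which the pathway converges. Its transcript was the steadiest of the 10. It lay at 58.7, 54.8 and 58.8 FPKM in N2 and at 59.6, 62.5 and 60.5 FPKM in the mutant. The mutant libraries were all above N2, yet the log2 change was 0.08 (SE 0.11, limma adjusted p = 0.551), lower than the median of all genes by 0.15, and it was -0.17 after median-ratio scaling. The gene has 11 RefSeq transcripts, which the table does not separate, and nuclear entry of the protein leaves no mark in this measure.

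**Figure D3:**
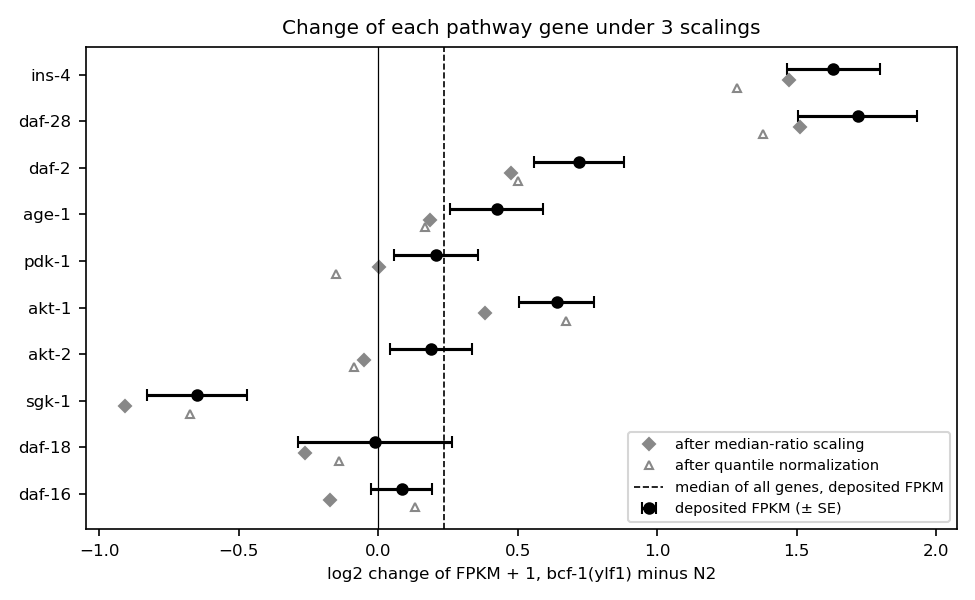
log2 change of FPKM + 1 (bcf-1(ylf1) minus N2, horizontal axis) of each pathway gene with its SE, and the same change after median-ratio scaling and quantile normalization. ins-4, daf-28, daf-2 and akt-1 stay above 0 and sgk-1 below 0 under each scaling, while pdk-1, akt-2 and daf-16 cross 0. The dashed line is the median of all tested genes, 0.24.

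Levels per length put the transcripts of the pathway in order. In N2 the highest mean FPKM was that of daf-16, followed by sgk-1, akt-1 and daf-18, and in each of these neighbouring pairs the library ranges overlapped. daf-2, akt-2 and age-1 came next, at 10.9, 10.6 and 9.68 FPKM, and overlapped as well. pdk-1, daf-28 and ins-4 followed, each below the last in every library. In the mutant akt-1 was above daf-16, without overlap. Below them sgk-1 and daf-18 overlapped, daf-2 came next, age-1 and akt-2 overlapped, and daf-28 was above ins-4 and pdk-1, which overlapped.

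Ratios of genes within a library do not depend on the scaling between libraries, and 4 were compared by a two-sided exact permutation test, for which 0.1 is the smallest p that 3 libraries against 3 can give. daf-2 relative to daf-16 was 0.210, 0.185 and 0.177 in N2 and 0.281, 0.272 and 0.373 in the mutant. akt-1 relative to akt-2 was 5.06, 3.59 and 4.37 in N2 and 5.60, 5.36 and 6.67 in the mutant. age-1 relative to daf-18 was 0.284, 0.474 and 0.384 in N2 and 0.547, 0.531 and 0.475 in the mutant. In these 3 ratios every mutant library was above every N2 library, for age-1 to daf-18 by 0.475 against 0.474 at the nearest. Each had an exact p of 0.1 (adjusted over the 4 ratios, 0.133), with log2 differences of 0.69, 0.45 and 0.47. For age-1 to daf-18 the difference was 0.28 without N2 replicate 1. daf-28 relative to ins-4 overlapped, at 1.70, 4.16 and 2.92 in N2 and 2.05, 2.14 and 1.73 in the mutant (exact p = 0.4).

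**Figure D4:**
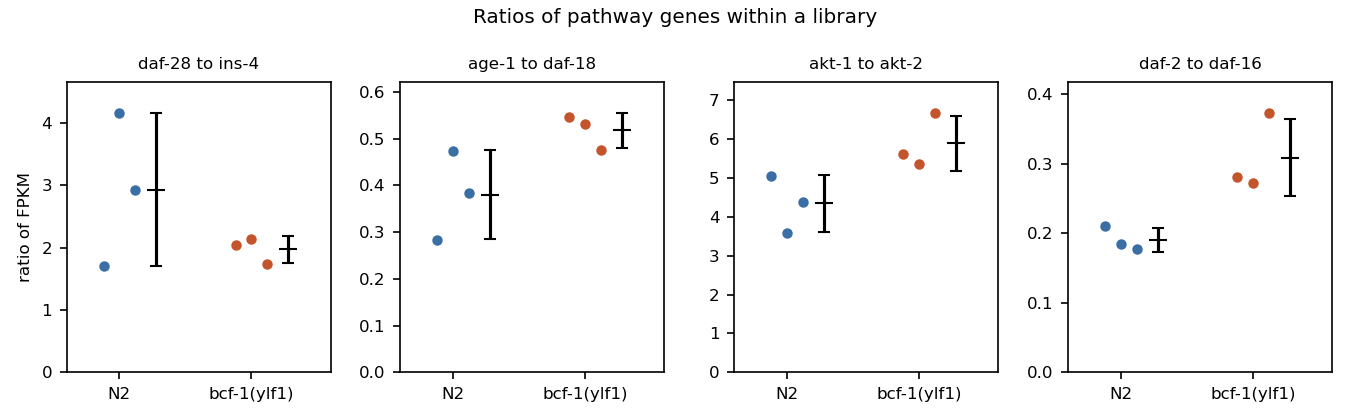
Ratio of FPKM (vertical axes, from 0) of 4 pairs of pathway genes in each library, N2 in blue and bcf-1(ylf1) in orange, with mean and SD in black. The mean daf-2 to daf-16 ratio is 0.191 in N2 and 0.309 in the mutant, and the daf-28 to ins-4 ratio is spread from 1.70 to 4.16 in N2.

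Genes that process and release the peptides were counted next. Of 13 such genes, all tested, 2 rose and 0 fell in limma (4 and 1 at an unadjusted p under the threshold), beside 34.6% and 15% of all tested genes, and the median log2 change was 0.09 (-0.15 once that of all genes was subtracted). Of these genes egl-3, rab-3 and unc-31 are also among the neuron markers. unc-31, a factor for dense-core vesicle release, rose 1.87-fold to 3.09 ± 0.402 FPKM, and the proprotein convertase gene bli-4 rose 1.36-fold to 112 ± 9.03 FPKM (log2 changes 0.62 and 0.44, limma adjusted p = 0.00492 and 0.0117). Calls were lost for unc-31 after quantile normalization and for bli-4 after median-ratio scaling and without mutant replicate 1 or 3, where 1 gene of the list was left as a rise. The convertase genes egl-3 and kpc-1 had log2 changes of 0.33 and 0.32 (limma adjusted p = 0.0651 and 0.0567), and kpc-1 passed without N2 replicate 2 (adjusted p = 0.039). Under median-ratio scaling 1 gene of the list was higher and 4 were lower, beside 3065 and 3096 of the 13576 genes tested. With a fixed total 4 were higher, beside 5016 of all genes tested.

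Among 28 modulators of the pathway, 23 were tested, of which 6 rose and 1 fell, beside 34.6% and 15% of all tested genes. Their median log2 change, 0.30, was 0.07 above that of all genes. Besides ist-1 the largest changes were rises of the kinase genes jnk-1 (2.09-fold), cst-2 (1.83-fold) and cst-1 (1.61-fold), of which the MST kinase homologues cst-1 and cst-2 are adjacent paralogues that may share reads. JNK-1 and CST-1 are kinases reported to act on DAF-16. smk-1, a cofactor of DAF-16, and math-33, a deubiquitinase that stabilises it, rose 1.53-fold and 1.35-fold, and bar-1, a beta-catenin, was 1.35-fold lower (limma adjusted p = 0.0489). The fall of bar-1 was lost without N2 replicate 1 or 2, without mutant replicate 1, 2 or 3, and in the fits without a filter, with the stricter filter and with a fixed total. The rise of math-33 was lost after median-ratio scaling, as well as without mutant replicate 1. With the replicate number as a block the calls of bar-1 and math-33 were both lost (limma adjusted p = 0.108 and 0.05003). Without N2 replicate 1, 11 genes of the list rose, but rises over all genes also went from 4703 to 5720 in that fit.

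TOR pathway genes and inputs to SGK-1 showed no call. Of 10 tested, 0 passed in limma, beside 34.6% of all tested genes called higher and 15% called lower. At an unadjusted p under the threshold 2 were higher and 0 lower, and the median log2 change was -0.08 (-0.32 with that of all genes subtracted). rict-1, the TOR complex subunit upstream of SGK-1, was at 12.02, 9.37 and 10.1 FPKM in N2 and 13.96, 12.8 and 14.1 FPKM in the mutant (log2 change 0.35, limma adjusted p = 0.0718). Without N2 replicate 1, 2 genes of the list rose, rict-1 among them (adjusted p = 0.019), beside 5720 rises over all genes in that fit. After median-ratio scaling 5 were lower, beside 3096 of the 13576 genes tested.

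Transcripts known to respond to DAF-16 moved both ways. Class I genes are raised, and class II genes lowered, when DAF-2 is inactive and DAF-16 is nuclear. Of 20 class I genes, 13 were tested, of which 5 rose and 5 fell, beside 34.6% and 15% of all tested genes. Their median log2 change was 0.07, and subtracting that of all genes left -0.16. Of 14 class II genes, 12 were tested, of which 5 rose and 5 fell as well. Here the median was -0.10, or -0.34 once that of all genes was subtracted. In these counts asm-3 passed the filter only through N2 and gcy-18 only through the mutant. Without N2 replicate 2 or 3, 3 class I genes fell, beside 1648 and 1755 falls over all genes. There asm-3 no longer reached the filter, which accounts for only part of the drop from 5. Without mutant replicate 1, 3 class II genes rose, beside 2877 rises over all genes.

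Among class I genes, sod-3, a mitochondrial superoxide dismutase gene and the usual reporter of DAF-16 activity, rose from 2.29, 1.86 and 2.12 FPKM in N2 to 5.57, 5.61 and 8.48 FPKM in the mutant. This was a 3.14-fold rise (log2 change 1.27, SE 0.18, limma adjusted p = 0.000467). The lysozyme gene lys-7 rose 5.43-fold to 91.9 ± 4.10 FPKM and dod-6 5.29-fold to 112 ± 27.8 FPKM. In the opposite direction, the acid sphingomyelinase gene asm-3 lay at 7.24 to 7.86 FPKM in N2 and 0.0414 to 0.144 FPKM in the mutant, 77.02-fold lower. The catalase genes ctl-1 and ctl-2, tandem copies that may share reads, were 1.97-fold and 2.17-fold lower. mtl-1, a metallothionein gene strongly raised in daf-2 mutants, did not exceed 0.849 FPKM in any library and overlapped, and dod-3 was at 0.930 to 1.56 FPKM in N2 and 0.568 to 0.850 FPKM in the mutant. Neither passed the filter.

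Among class II genes, the yolk protein genes vit-5 and vit-2 were 315-fold and 111-fold lower. Both have close copies, so the level of each is uncertain. dod-23 was 8.09-fold lower and dod-17 2.68-fold lower. dod-21 rose 35.96-fold, from 0.747, 1.47 and 0.657 to 34.2, 32.2 and 37.1 FPKM, and dod-24 rose 4.34-fold to 147 ± 16.3 FPKM. dod-21, dod-24, dod-22 and dod-17 lie close together on chromosome IV, from 12936738 to 12978343, and there dod-17 fell while the others rose. The rise of dod-22 was lost after median-ratio scaling or quantile normalization, as well as without mutant replicate 1. ins-7, a ligand gene and a class II gene at once, rose as given above. Of 12 intestine markers with 11 rows, 1 rose and 7 fell, beside 34.6% and 15% of all tested genes. Their sum was 7418 to 9836 FPKM in N2 and 8937 to 10764 FPKM in the mutant. Many genes of both classes are intestinal, and the part of these markers in the counts was not tested.

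**Figure D5:**
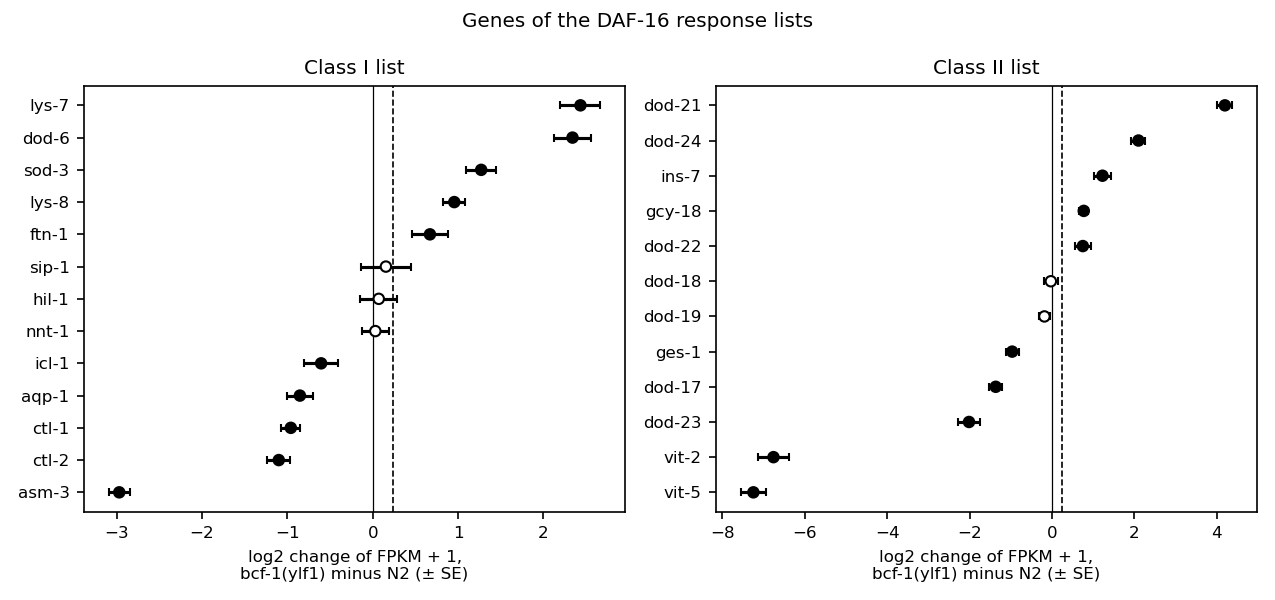
log2 change of FPKM + 1 (bcf-1(ylf1) minus N2, horizontal axes, scales differ) with its SE for the tested genes of the class I and class II lists. Filled points passed an adjusted p of 0.05, open points did not, and the dashed line is the median of all tested genes. Each list has 5 filled points above 0 and 5 below it.

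Factors that act with DAF-16 changed modestly. Of 9 tested, 2 rose and 1 fell, beside 34.6% and 15% of all tested genes, with a median log2 change of 0.24, the same as all genes. The hypodermal GATA factor gene elt-3 rose 1.59-fold and the nuclear receptor gene nhr-49 1.44-fold, and the intestinal GATA factor gene elt-2 was 1.40-fold lower (limma adjusted p = 0.0136, 0.00499 and 0.012). The rises of elt-3 and nhr-49 were lost after median-ratio scaling, and that of elt-3 also after quantile normalization. The fall of elt-2 was lost without mutant replicate 1 or 3, and without N2 replicate 1 or after either scaling the list had 2 falls. Over all genes the falls were 1870 without N2 replicate 1, 3096 after median-ratio scaling and 2803 after quantile normalization. The list also holds hlh-30, hsf-1, nhr-80, pqm-1, skn-1 and swsn-1, none of which passed.

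Other signals known to act in the dauer decision were counted beside the insulin pathway. Of 17 genes of the TGF-beta, steroid and related dauer pathways, 15 were tested, of which 9 rose and 3 fell, beside 34.6% and 15% of all tested genes. daf-10, one of the falls, passed the filter only through the N2 libraries. The median log2 change was 0.52, which is 0.29 above that of all genes, and the difference from other genes was not tested. After daf-7, the largest rises on the log2(FPKM + 1) scale were 1.19 for din-1, a cofactor of the steroid receptor DAF-12, and 0.93 for daf-14, a SMAD gene. daf-22, a thiolase gene of pheromone synthesis, fell from 292 ± 27.8 to 75.8 ± 12.3 FPKM, 3.85-fold lower (log2 change -1.94, limma adjusted p = 2.03e-05). Without N2 replicate 1 or 2 only the fall of daf-22 remained, and daf-10 no longer reached the filter. daf-36 (limma adjusted p = 0.0487) lost its call in 9 of 15 alternatives, among them leaving out mutant replicate 1, 2 or 3.

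Genes with the most similar pattern were sought by the distance between log2(FPKM + 1) values over the 6 libraries, after centring each of 13245 tested genes with a symbol on its mean. With 6 libraries in 2 genotypes, most of this likeness is the size of the genotype difference. Nearest to ins-4 were K07H8.9, T25G12.6 and T25G12.11, at distances of 0.108, 0.154 and 0.164 log2 units. Nearest to daf-28 were C02B8.3, ztf-30 and F37A8.5, at 0.133, 0.153 and 0.158. daf-2 was closest to C46C2.6, T19D12.5 and Y17G9B.4, and daf-16 to snx-6, T23G11.4 and K08D12.3, whose distances were at most 0.0864 and 0.0501.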

How the data were processed

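Total RNA of whole worms was sequenced in 3 libraries per genotype. Reads were handled with fastp against build WBcel235, per the submitters' processing notes, while the sources used here name no aligner, quantifier, annotation release or strand setting. The authors deposited a gene table of 20894 rows by 6 libraries, whose values were taken to be FPKM. That unit is inferred, since the values are not whole and the columns sum to differing totals. Whole reads could not be recovered: among genes above 0 in 1 library, 22.3% to 39.5% of values times exon length fell within 10% of the commonest.

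RefSeq locus tags matched 19959 rows to symbols. Genes reaching 1 FPKM in 3 or more libraries were tested on log2(FPKM + 1) with limma 3.58.1 in R 4.3.3, with genotype as the only term and a mean-variance trend, after a test on simulated data. Tests were two-sided and Benjamini-Hochberg adjusted over 13576 genes, with a threshold of 0.05. Folds are ratios of mean FPKM, and log2 changes understate those of low genes. The members and lists were chosen with earlier results of these data known. In each list, the up to 4 called genes with the largest change are named, with all called insulin-like genes and sod-3, mtl-1, dod-3, aap-1 and ist-1. Other genes named were chosen after their values were seen. The list symbols daf-21, opt-2 and tts-1 matched no row. Alternatives were a pseudocount of 0.1, no filter, filters of 5 FPKM in 3 libraries or a mean of 1 FPKM (the last added after seeing the data), median-ratio, quantile and fixed-total scaling, the replicate number as a block, no trend, and leaving out each library. A count-based alternative was planned for counts only and was not run.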

Additional observations from a re-analysis of the deposited data

How the results depend on the processing

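The rises of daf-28, daf-2 and akt-1 kept their direction and call in all 15 alternatives, and that of ins-4 in the 11 that could test it. ins-4 missed the filter without any of mutant replicates 1, 2 and 3 and with the filter of 5 FPKM. The count of pathway genes called lower was 0 to 1, and of those called higher 3 to 5, over the fits leaving out a replicate. Among uncalled genes, pdk-1 turned to -0.15 after quantile normalization, akt-2 to -0.052 and -0.088 after median-ratio scaling and quantile normalization, daf-16 to -0.17 after median-ratio scaling, and daf-18 to 0.032 with a fixed total, 0.34 without N2 replicate 1 and 0.051 without mutant replicate 2, with a range of -0.27 to 0.34 leaving out a replicate. ins-18 turned to -0.11 and -0.27 under these scalings and to -0.027 without mutant replicate 2, with a range of -0.027 to 0.16 leaving out a replicate. age-1 passed with a fixed total (adjusted p = 0.0487). The log2 ratio of daf-28 to ins-4, -0.48, became 0.088 when 1 was added to each value. The cause was not tested.

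Over all genes, 4703 rises became 3065 after median-ratio scaling, 3074 with the filter of 5 FPKM, where fewer genes were tested, and 2877 to 5720 leaving out a replicate. The 2035 falls became 3096 after median-ratio scaling, when the median log2 change was 0.0017, and 2803 after quantile normalization, beside 3255 rises. Of the insulin-like family, 13 rises became 2 with the filter of 5 FPKM and 18 without a filter. Deviations of same-numbered libraries correlated by 0.0097, -0.074 and -0.277, and those of differently numbered libraries by -0.195 to 0.336. With 3 libraries per genotype, these values cannot tell whether the numbers pair the libraries. With the replicate block 4309 genes rose and 1863 fell, and the pathway genes had the same 4 rises and 1 fall, while bar-1, math-33 and daf-36 were not called (adjusted p = 0.108, 0.05003 and 0.085). Low FPKM and unknown depth limit what can be said of most peptide genes.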
